A study of Homo sapiens with 6 samples.

Results

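The enzymes and regulators of cholesterol and fatty-acid synthesis were followed in HCT116 cells exposed to Nutlin-3 or to 5-fluorouracil (5FU). The set holds 28 genes, taken as every probe set of the array whose only gene symbol in the platform annotation was one of them, after SC4MOL was updated to MSMO1 and SC5DL to SC5D. These 28 genes are part of 19488 named genes, with 688 of the 1411399 probe sets, and all 28 were measured by at least 2 probe sets above the filter described here (643 probe sets in all). They were listed by pathway and not by their values, although results of these data were known when the list was proposed.

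HCT116 is an established human colorectal carcinoma line, labelled HCT116 +/+. RNA was taken from 2 control arrays, 2 arrays of cells given Nutlin-3 and 2 arrays of cells given 5FU, after 12 h. Nutlin-3 occupies the p53 pocket of MDM2 and so stabilises p53, and 5FU is a fluorinated uracil whose products disturb thymidylate synthesis and RNA. The control is labelled as untreated while the design text gives DMSO, the compound is written Nutlin 3R in the labels, and the sources used here do not state doses. All groups are of a single cell line, and the comparisons of each drug with control share the same 2 control arrays. Of the colonic epithelial markers, KRT8 lay between 11.14 and 11.31 over the 6 arrays, KRT18 between 10.94 and 11.12 and KRT20, a keratin of differentiated colonocytes, between 5.52 and 5.89. Of the 11 colonic markers measured, 4 had a mean over 8, and the means ran from 5.69 (KRT20) to 11.25 (KRT8). The files hold no detection call, so these levels do not show which markers were present or absent. No gene of the colonic list (11 measured) or of the fibroblast (6), blood (5), hepatocyte (3) and adipocyte (3) lists was called in a comparison by limma, with at most 1 of a list at an unadjusted p below 0.05. As a check of the labels, CDKN1A, the p53-induced inhibitor of cyclin-dependent kinases, was at 8.32 and 8.27 in control, 10.39 and 10.39 after Nutlin-3, and 10.12 and 10.03 after 5FU.

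All values are deposited log2 values from RMA, and a gene's value is the mean over its probe sets with a 6-array average over 4.73, which is the median over the whole table. A difference of 1 is a 2-fold change, and values of different genes are not compared because probes differ in brightness. A gene was called when its Benjamini-Hochberg adjusted p over the 17841 genes tested was below 0.05 in limma. With 2 arrays a group an exact two-sided permutation test cannot give a p below 0.333, so each call leans on variance that limma shares across genes. In bulk RNA, fewer cells of a kind and less RNA per cell cannot be told apart.

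Cholesterol is built from acetyl-CoA through mevalonate, isoprenoid units, squalene and lanosterol, and fatty acids are built from the same acetyl-CoA. The transcription factors SREBF1 and SREBF2 drive the genes of both branches. When sterols are plentiful, INSIG proteins hold SCAP and its SREBP cargo in the endoplasmic reticulum; when sterols run low, the complex moves to the Golgi, where SREBP is cut and released to the nucleus. INSIG1 is itself a target of SREBP, and p53 is known to act on this pathway in several cell types.

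Promoter sequences are shown because the members are known to be driven through short elements next to the start site. They come from RefSeq windows of GRCh38.p14 (250 bases before to 50 after each start), which held 24 of the 28 genes in 33 windows; ACAT2, FDFT1, SQLE and FASN were not matched. The motifs searched on both strands were TCACNCCAC (a sterol regulatory element), CCAAT (bound by NF-Y), GGGCGG (a GC box bound by SP factors) and CACGTG (an E-box). The 150 bases before the start are given below, 5′ to 3′, for the 4 genes with the smallest unadjusted p in any comparison among members with a single window (HSD17B7, INSIG1, EBP and TM7SF2) and for SREBF2, the member with a match to the sterol element. Capitals mark motif matches in either orientation, so that a CCAAT on the other strand reads ATTGG here.
SREBF2 (chr22:41832955-41833104, + strand): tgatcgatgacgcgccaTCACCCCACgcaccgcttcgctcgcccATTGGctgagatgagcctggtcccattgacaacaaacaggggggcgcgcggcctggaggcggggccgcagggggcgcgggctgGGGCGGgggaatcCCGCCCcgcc
INSIG1 (chr7:155297728-155297877, + strand): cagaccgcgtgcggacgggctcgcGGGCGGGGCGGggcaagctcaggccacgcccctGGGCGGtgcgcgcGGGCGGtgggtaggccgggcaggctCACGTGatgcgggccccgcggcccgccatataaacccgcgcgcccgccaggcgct
HSD17B7 (chr1:162790552-162790701, + strand): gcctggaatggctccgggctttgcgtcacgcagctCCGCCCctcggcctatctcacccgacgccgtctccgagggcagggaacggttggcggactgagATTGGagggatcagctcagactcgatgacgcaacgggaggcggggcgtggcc
EBP (chrX:48521658-48521807, + strand): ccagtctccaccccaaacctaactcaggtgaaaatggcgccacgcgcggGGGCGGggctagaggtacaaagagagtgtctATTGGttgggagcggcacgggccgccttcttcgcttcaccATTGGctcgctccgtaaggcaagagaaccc
TM7SF2 (chr11:65111722-65111871, + strand): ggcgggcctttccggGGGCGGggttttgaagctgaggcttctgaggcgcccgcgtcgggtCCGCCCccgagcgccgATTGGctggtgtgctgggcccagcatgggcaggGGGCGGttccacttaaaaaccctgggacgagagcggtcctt

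In SREBF2 the match TCACCCCAC began 133 bases before the start, and the CCAAT match began 106 bases before it. INSIG1 held 4 GC boxes in these 150 bases, the first pair sharing a base, and an E-box 55 bases before the start. EBP held CCAAT at 70 and at 30 bases before its start. Over whole windows, CCAAT was found in 23 of 33 member windows (69.7%) against 34.6% of all 35116 windows, and the GC box in 30 of 33 (90.9%) against 45.0%. The E-box was in 5 of 33 (15.2%) against 7.26%, and the sterol element in 1 of 33 (3.03%) against 1.13%. These are letter matches and not measured sites, and members with several start sites contribute several windows.

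Nutlin-3 was compared with control to ask which steps of lipid synthesis differed once p53 had been stabilised. INSIG1, which retains SCAP when sterols are plentiful, fell 2.44-fold, and HSD17B7, a ketosteroid reductase late in cholesterol synthesis, rose 2.05-fold. These were the 2 members called, 2 of 28 against 1.22% of all genes (1 lower against 0.858% and 1 higher against 0.359%). The log2 difference was below 0 in 21 of 28 members, against 49.9% of all genes, and its median was -0.23 against 0.00 over all genes. At an unadjusted p below 0.05 there were 8 members (10.2% of all genes), 6 of them lower (6.23%) and 2 higher (3.97%). The median stayed between -0.36 and -0.10 in the fits that left out 1 array.

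**Figure D1:**
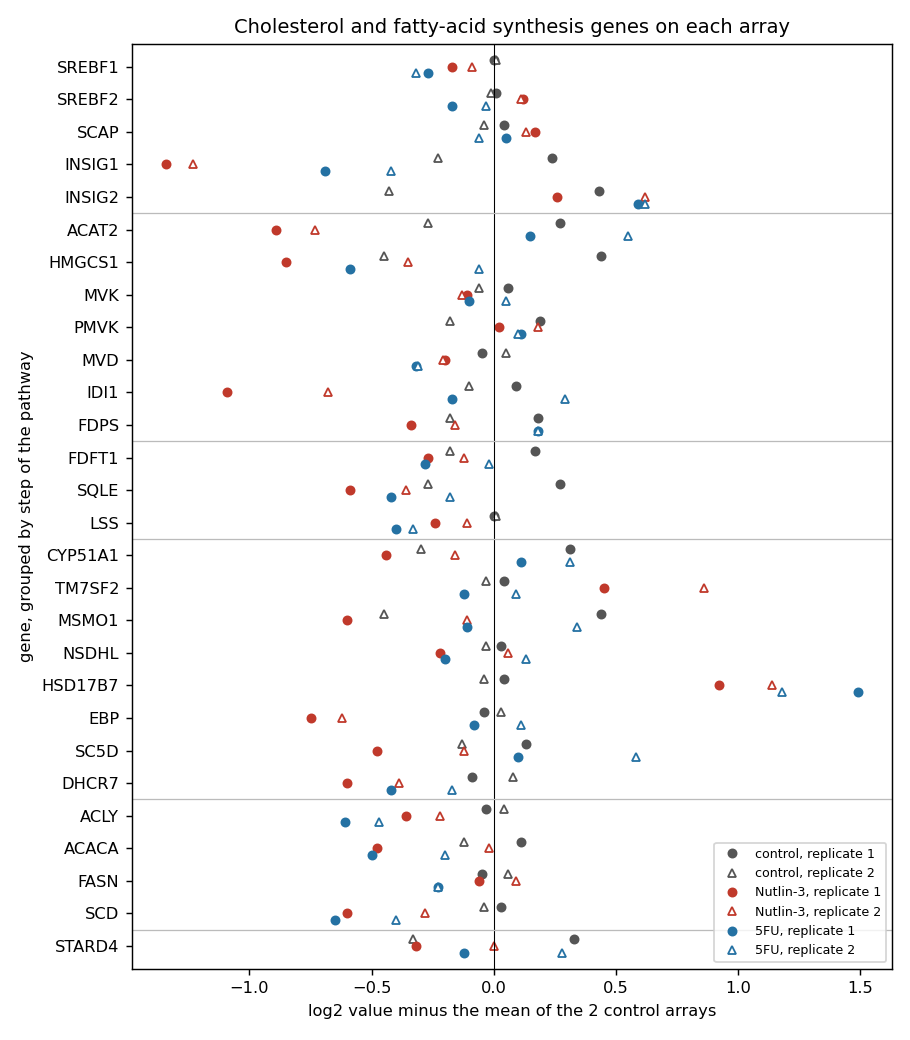
Log2 value of each of the 28 genes on each array, as the difference from the mean of the 2 control arrays (horizontal axis), with genes grouped by step of the pathway (regulators, mevalonate and isoprenoid steps, squalene steps, steps after lanosterol, fatty acid synthesis, sterol transport). Each point is 1 array; INSIG1 is lowest after Nutlin-3, HSD17B7 is higher on all 4 drug arrays, and for genes such as HMGCS1 and MSMO1 the 2 control arrays lie 0.89 apart.

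Among the regulators, INSIG1 was the member that passed the test. Its log2 value was 7.99 and 7.52 in control, 6.41 and 6.52 after Nutlin-3, and 7.06 and 7.33 after 5FU. Both Nutlin-3 arrays lay below every other array, and the 5FU arrays lay below both controls. From a control mean of 7.75 ± 0.33 (SD, n = 2) to 6.47 ± 0.08, the log2 difference after Nutlin-3 was -1.29 (95% interval -1.74 to -0.83, limma adjusted p = 0.0312). After 5FU, measured against the same controls, it was -0.56 (-1.01 to -0.11, limma adjusted p = 0.354). The call for Nutlin-3 was lost without control replicate 1 (-1.05, limma adjusted p = 0.142), without Nutlin-3 replicate 1 (-1.23, 0.148) or without Nutlin-3 replicate 2 (-1.34, 0.0796), and when the median of probe sets replaced their mean (-1.02, 0.147). Over the 18 alternatives, some of them chosen after the values were seen, the difference stayed between -1.52 and -1.02.

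INSIG1 was read by 15 probe sets, which all passed the filter. It overlaps 2 genes in the RefSeq annotation, INSIG1-DT among them, and shared signal was not separated. After Nutlin-3, 14 of the 15 had a mean below control and 12 did not overlap with control, where 15.0% of all probe sets above the filter were lower without overlap. The difference ran from -2.60 to 0.84 with a median of -1.43. The probe set with the lowest number went the other way after Nutlin-3 (5.67 and 5.71 in control, 6.77 and 6.29 after Nutlin-3). The next one was higher after 5FU (7.96 and 7.49 in control, 8.58 and 8.35 after 5FU). After 5FU the differences ran from -1.13 to 0.74, with 11 of 15 lower without overlap against 17.6% of all probe sets. Probe sets of a gene read the same RNA samples and are not replicates.

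INSIG2, the second protein that retains SCAP, had values of 7.51 and 6.65 in control, 7.34 and 7.70 after Nutlin-3, and 7.67 and 7.70 after 5FU. The control arrays were 0.86 apart, and the differences of 0.44 after Nutlin-3 (95% interval -0.21 to 1.09, limma adjusted p = 0.725) and 0.60 after 5FU (-0.05 to 1.26, 0.516) did not pass the test. SREBF2, the factor that favours sterol genes, was at 7.98 and 7.96 in control, 8.09 and 8.08 after Nutlin-3, and 7.80 and 7.94 after 5FU, differences of 0.11 (-0.19 to 0.42) and -0.10 (-0.40 to 0.21). SREBF1, which favours fatty acid genes, was at 8.28 and 8.29 in control, 8.11 and 8.19 after Nutlin-3, and 8.01 and 7.96 after 5FU. The widest difference from control of either factor was -0.30, for SREBF1 after 5FU, and neither was called. Its 95% interval was -0.60 to -0.00 (limma unadjusted p = 0.0477, adjusted p = 0.46). SCAP, the escort of SREBP, differed from control by 0.15 after Nutlin-3 (-0.16 to 0.45) and by -0.01 after 5FU (-0.31 to 0.30). SREBF1 overlaps RAI1 in the RefSeq annotation and SREBF2 an antisense gene, so shared signal was not separated.

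In the mevalonate and isoprenoid steps, 6 of 7 genes had a mean below control after Nutlin-3, against 49.9% of all genes. None was called by limma (2 at an unadjusted p below 0.05, against 10.2% of all genes). IDI1, which interconverts the isoprenoid building blocks, showed the widest gap, at 7.64 and 7.45 in control and 6.46 and 6.87 after Nutlin-3. The groups did not overlap, and the difference was -0.88 (95% interval -1.39 to -0.38, limma adjusted p = 0.148). After 5FU it was at 7.38 and 7.84, around the controls. IDI1 overlaps WDR37 in the annotation, as MVK does MMAB and ACACA does C17orf78, and shared signal was not separated. ACAT2, the cytosolic thiolase that joins acetyl-CoA units, was at 7.79 and 7.25 in control, 6.63 and 6.79 after Nutlin-3, and 7.67 and 8.07 after 5FU. Its Nutlin-3 arrays lay below the other 4, with a difference from control of -0.81 (-1.33 to -0.28, limma adjusted p = 0.218). All 14 of its probe sets were lower on average after Nutlin-3, 9 of them without overlap, where 15.0% of all probe sets were. ACAT2 overlaps SOD2 and TCP1 in the annotation, and these genes differed from control by -0.13 and -0.18 after Nutlin-3.

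HMGCS1, the synthase that makes HMG-CoA, was at 8.23 and 7.34 in control, 6.94 and 7.44 after Nutlin-3, and 7.20 and 7.73 after 5FU. The second control array lay among the drug arrays, so the differences of -0.60 (95% interval -1.38 to 0.18) and -0.32 (-1.10 to 0.46) were within the spread between replicates. MVD, mevalonate diphosphate decarboxylase, varied less: 7.75 and 7.85 in control, 7.60 and 7.59 after Nutlin-3, and 7.48 and 7.49 after 5FU. All 4 drug arrays lay below both controls, by -0.20 (limma adjusted p = 0.715) and -0.32 (0.431). FDPS, which makes farnesyl diphosphate, differed by -0.26 after Nutlin-3 and 0.17 after 5FU. The kinases MVK (-0.12 and -0.02) and PMVK (0.10 and 0.10) were close to control in both comparisons, and the widest of their 95% intervals ended at 0.49.

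The 3 squalene steps, FDFT1 (squalene synthase), SQLE (squalene epoxidase) and LSS (lanosterol synthase), had means below control after both drugs (49.9% and 49.7% of all genes did). None was called by limma (0 at an unadjusted p below 0.05 after Nutlin-3 and 1 after 5FU, against 10.2% and 10.7% of all genes). SQLE was at 9.67 and 9.13 in control, 8.81 and 9.04 after Nutlin-3, and 8.98 and 9.22 after 5FU. Its Nutlin-3 arrays lay below both controls by -0.47 (95% interval -0.97 to 0.02, limma adjusted p = 0.518), while a 5FU array lay between them. LSS was at 7.74 and 7.75 in control, 7.50 and 7.63 after Nutlin-3, and 7.34 and 7.41 after 5FU. It did not overlap with control after either drug, with differences of -0.18 (-0.48 to 0.13) and -0.37 (-0.67 to -0.06, limma adjusted p = 0.37). FDFT1 overlapped with control in both comparisons, at -0.19 and -0.15.

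The steps after lanosterol held members on both sides. HSD17B7 was at 5.28 and 5.20 in control, 6.16 and 6.38 after Nutlin-3, and 6.73 and 6.42 after 5FU, so all 4 drug arrays lay above both controls. From 5.24 ± 0.05 in control it rose to 6.27 ± 0.16 after Nutlin-3 (difference 1.03, 95% interval 0.65 to 1.41, limma adjusted p = 0.0364) and to 6.57 ± 0.22 after 5FU (1.33, 0.95 to 1.71, limma adjusted p = 0.0295). The call for Nutlin-3 was lost without any 1 of the 6 arrays: without control replicate 1 (1.07, limma adjusted p = 0.164) or control replicate 2 (0.99, 0.145), without Nutlin-3 replicate 1 (1.14, 0.11) or Nutlin-3 replicate 2 (0.92, 0.133), and without either array of 5FU (1.03, 0.0519 each). The call for 5FU was lost without control replicate 1 (1.37, limma adjusted p = 0.118), control replicate 2 (1.29, 0.169), 5FU replicate 1 (1.17, 0.229) or 5FU replicate 2 (1.49, 0.203). Both calls were also lost with the median of probe sets (0.84, limma adjusted p = 0.129, and 1.03, 0.114) and with the largest run of probe-set numbers (0.92, 0.0865, and 1.17, 0.0707), and that for Nutlin-3 when only these groups were fitted (1.03, 0.0519). Over the 17 alternatives, some of them chosen after the values were seen, the differences ran from 0.84 to 1.14 for Nutlin-3 and from 0.88 to 1.49 for 5FU.

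HSD17B7 has a transcribed pseudogene copy, HSD17B7P2, and 21 further probe sets carry both symbols. The gene's value therefore rested on the 5 probe sets above the filter that are named for it alone. Of these, 3 lay in a first run of probe-set numbers and 2 in a second run far from it. Whether the second run reads the copy was not tested. The 5 probe sets were not alike. A pair of them differed most, with means of 4.75 and 4.73 in control, next to the filter, 6.36 and 6.25 after Nutlin-3 and 7.51 and 7.47 after 5FU, while the other 3 differed from control by 0.29 to 0.89 after Nutlin-3 and by 0.07 to 0.67 after 5FU. The pair had a probe set in each run, at nearly the same values. With no detection call it is not known whether the control values of that pair lay above background, so the size of their differences is uncertain. The 19 shared probe sets above the filter were higher than control on average in 18 after Nutlin-3 (median difference 0.81) and in 19 after 5FU (median 0.72). With the shared probe sets added, a choice made after the values were seen, both differences were 0.88 and neither was called (limma adjusted p = 0.199 and 0.233). HSD17B7P2 under its own symbol differed by 0.92 after Nutlin-3 (95% interval up to 1.79, limma adjusted p = 0.459) and by 0.72 after 5FU. The gene and its copy cannot be told apart by most of these probes.

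**Figure D2:**
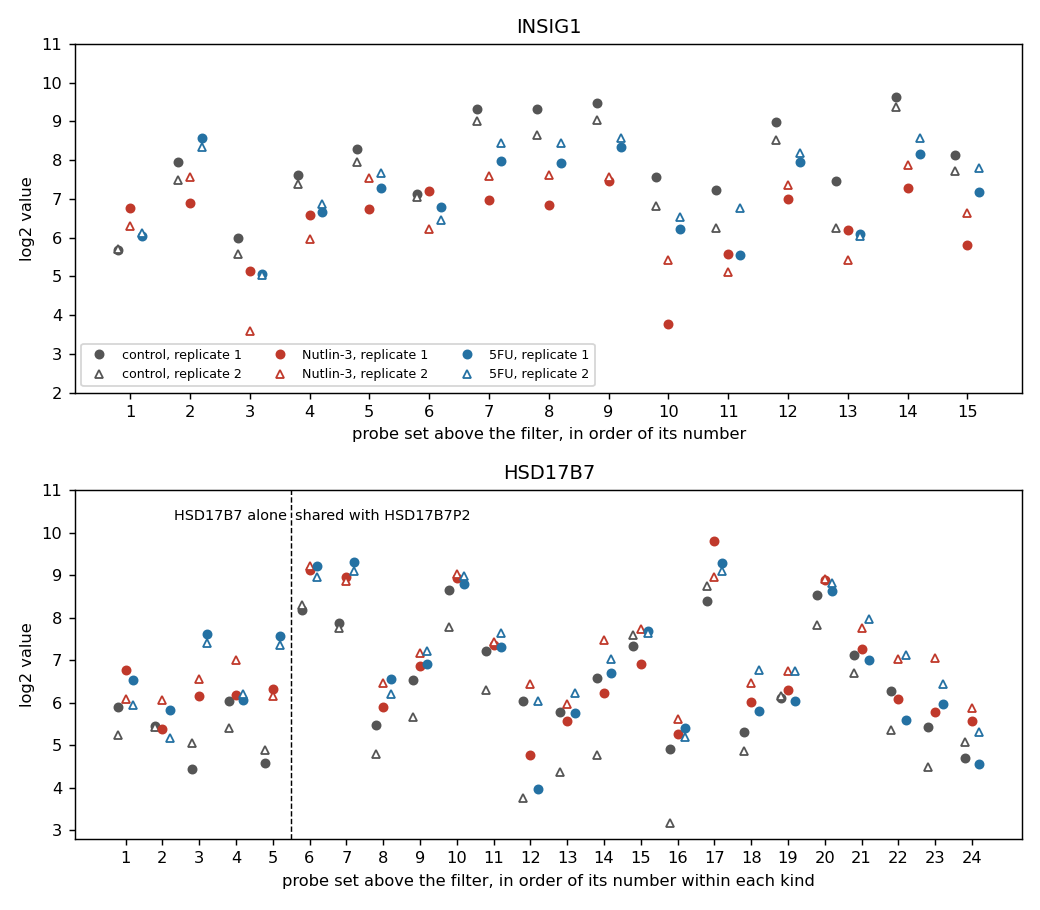
Log2 value of each probe set above the filter on each array for INSIG1 (15 probe sets, above) and HSD17B7 (below; 5 named for the gene alone, left of the dashed line, and 19 shared with HSD17B7P2, right of it). Each point is 1 array; most INSIG1 probe sets are lowest after Nutlin-3, and a pair of the HSD17B7 probe sets named for the gene alone stands higher after 5FU than after Nutlin-3.

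EBP, the sterol isomerase, was at 8.98 and 9.05 in control, 8.27 and 8.40 after Nutlin-3, and 8.94 and 9.13 after 5FU. Its Nutlin-3 arrays lay below the other 4, by -0.68 from control (95% interval -1.01 to -0.36, limma adjusted p = 0.0865), and all 13 of its probe sets were lower on average. DHCR7, the reductase that completes cholesterol from its dehydro precursor, was at 9.29 and 9.46 in control, 8.78 and 8.99 after Nutlin-3, and 8.96 and 9.21 after 5FU. It was below control without overlap after either drug, by -0.50 (-0.87 to -0.13, limma adjusted p = 0.301) and -0.29 (-0.66 to 0.08, 0.613). TM7SF2, a sterol reductase, had the opposite sign: 7.76 and 7.69 in control, 8.17 and 8.58 after Nutlin-3, and 7.60 and 7.81 after 5FU. Its Nutlin-3 arrays lay above the other 4, with a difference from control of 0.65 (0.23 to 1.06, limma adjusted p = 0.209). With upper-quartile probe sets alone EBP (-0.73, limma adjusted p = 0.0459) and TM7SF2 (0.76, 0.048) were called.

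CYP51A1, MSMO1, NSDHL and SC5D overlapped with control after both drugs. CYP51A1, the lanosterol demethylase, was at 9.12 and 8.51 in control, 8.37 and 8.65 after Nutlin-3, and 8.92 and 9.12 after 5FU. Its probe sets lay in runs of numbers far apart, with 18 of the 32 above the filter in the largest. What the other runs read was not tested, and 7 members in all had several runs, MSMO1 and IDI1 among them. MSMO1, the sterol methyl oxidase, was at 8.68 and 7.79 in control, 7.64 and 8.13 after Nutlin-3, and 8.13 and 8.58 after 5FU. For both genes the second control array lay close to the Nutlin-3 arrays, and the differences from control, -0.31 and -0.35 after Nutlin-3, were within the spread between replicates. NSDHL, the sterol dehydrogenase, differed by -0.08 (95% interval -0.49 to 0.32) and -0.04 (-0.44 to 0.36). SC5D, a sterol desaturase, differed by -0.30 after Nutlin-3 and 0.34 after 5FU. STARD4, a carrier that moves cholesterol between membranes, was at 7.50 and 6.84 in control, 6.85 and 7.17 after Nutlin-3, and 7.05 and 7.45 after 5FU, with no separation of groups.

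The comparison of 5FU with control asks the same of a drug that acts on nucleotides. HSD17B7 was the 1 member called higher (0.331% of all genes) and 0 of 28 were called lower by limma (0.118% of all genes), with 6 members lower at an unadjusted p below 0.05 against 4.07% of all genes. The median difference was -0.03, with 17 of 28 below 0 against 49.7% of all genes. Members below control without overlap numbered 10 of 28 (18.0% of all genes), and those above it 2 of 28 (20.0%). After Nutlin-3 the corresponding counts were 12 of 28 (18.0%) and 4 of 28 (16.2%).

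The 4 enzymes of fatty acid synthesis were all below control without overlap after 5FU (18.0% of all genes were), and none was called by limma (2 lower at an unadjusted p below 0.05, against 4.07% of all genes). ACLY, which cleaves citrate to cytosolic acetyl-CoA, was at 10.46 and 10.53 in control, 10.13 and 10.27 after Nutlin-3, and 9.88 and 10.02 after 5FU. The 3 groups did not overlap, and the difference was -0.55 after 5FU (95% interval -0.87 to -0.23, limma adjusted p = 0.206) and -0.29 after Nutlin-3 (-0.61 to 0.03, 0.554). All 31 of its probe sets were below control without overlap after 5FU, where 17.6% of all probe sets were. SCD, the stearoyl-CoA desaturase, was at 10.32 and 10.25 in control, 9.69 and 10.01 after Nutlin-3, and 9.64 and 9.89 after 5FU. It was below control on all 4 drug arrays, by -0.43 (-0.82 to -0.04, limma adjusted p = 0.426) and -0.52 (-0.91 to -0.13, 0.322).

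ACACA, acetyl-CoA carboxylase, was at 8.46 and 8.23 in control, 7.87 and 8.33 after Nutlin-3, and 7.85 and 8.15 after 5FU, a difference of -0.35 after 5FU (95% interval -0.82 to 0.13). FASN, the fatty acid synthase, was at 10.04 and 10.15 in control, 10.03 and 10.18 after Nutlin-3, and 9.86 and 9.86 after 5FU. Its Nutlin-3 arrays spanned the controls (0.01, -0.30 to 0.32) and its 5FU arrays lay below them (-0.23, -0.55 to 0.08, limma adjusted p = 0.643). Of the 22 SCD probe sets, 14 lay in a first run of probe-set numbers and 8 in a second run far from it. The first run averaged 10.32 and 10.25 in control and 9.69 and 9.87 after 5FU, and the second 10.33 and 10.24 and then 9.55 and 9.93. In both runs all 4 drug arrays lay below both controls.

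**Figure D3:**
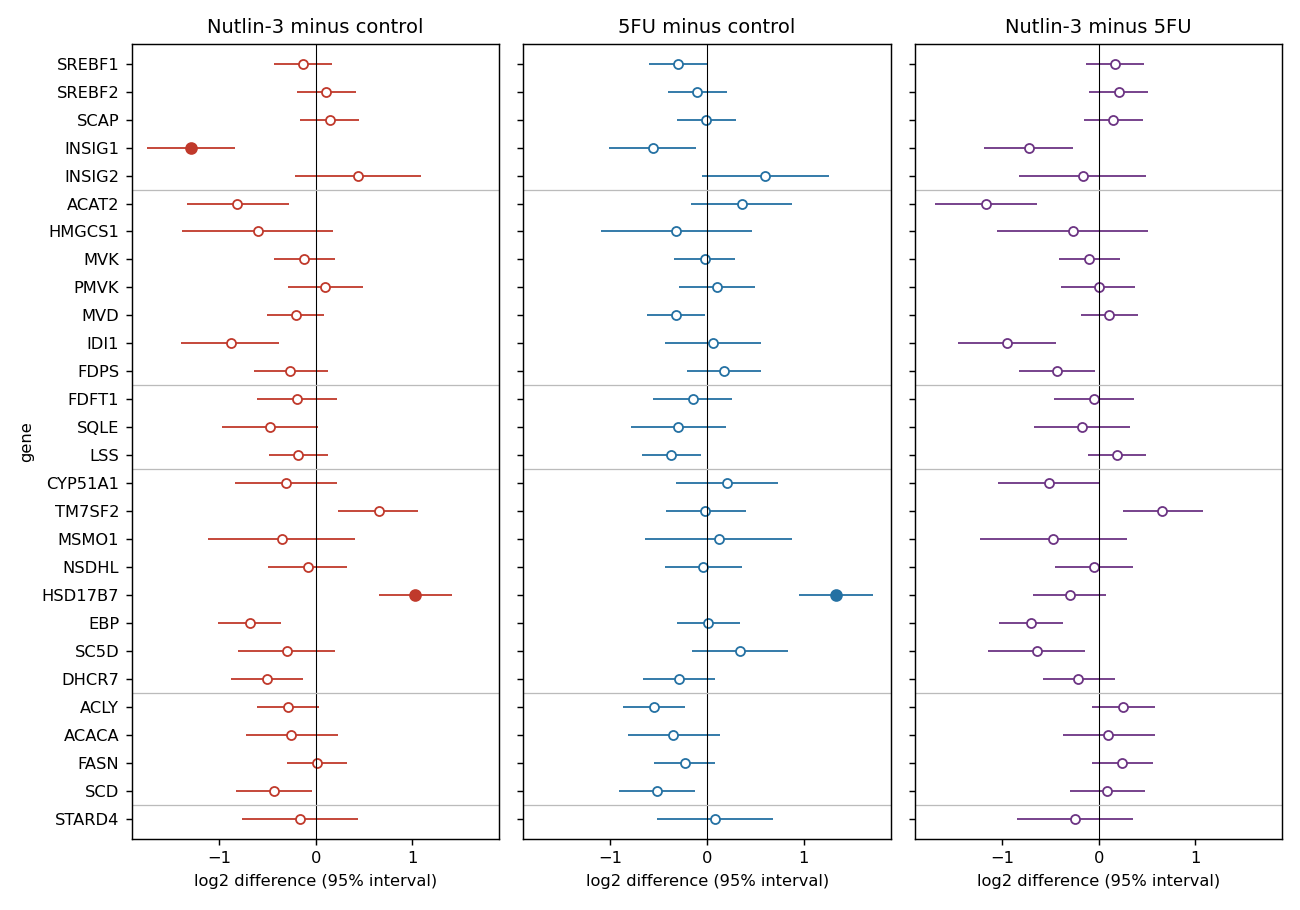
Log2 difference of group means with its 95% interval from limma for each of the 28 genes, for Nutlin-3 minus control, 5FU minus control and Nutlin-3 minus 5FU. Filled points passed an adjusted p of 0.05 over all genes tested: INSIG1 and HSD17B7 in the first panel, HSD17B7 in the second and none in the third, where ACAT2, IDI1, INSIG1, EBP, SC5D and FDPS have intervals below 0 and TM7SF2 above it.

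The direct comparison of Nutlin-3 with 5FU asks where the drugs differed. No member was called by limma (0 of 28, against 0.633% of all genes, 0.0617% higher and 0.572% lower), 7 were at an unadjusted p below 0.05, and with trend and robust variances the count was also 0. The 7 were ACAT2, EBP, IDI1, INSIG1, SC5D and FDPS, lower after Nutlin-3, and TM7SF2, higher. The log2 difference was below 0 in 18 of 28 members, against 50.8% of all genes. The background at an unadjusted p below 0.05 was 9.45% of all genes lower and 3.87% higher. ACAT2 had the widest gap, -1.16 (95% interval -1.69 to -0.64, limma adjusted p = 0.0886), or 2.24-fold, and all 14 of its probe sets were lower after Nutlin-3, 13 of them without overlap, where 18.0% of all probe sets were. Its neighbours TCP1 and SOD2, which were also lower on both Nutlin-3 arrays than on both 5FU arrays, differed by -0.44 (-0.82 to -0.06) and -0.53 (-0.94 to -0.12). With arrays centred on their medians ACAT2 was called (-1.13, limma adjusted p = 0.0327).

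For IDI1 the drugs differed by -0.95 (95% interval -1.45 to -0.44, limma adjusted p = 0.127), for INSIG1 by -0.72 (-1.18 to -0.27, 0.179) and for EBP by -0.70 (-1.03 to -0.37, 0.0984). SC5D was at 6.96 and 7.32 after Nutlin-3 and 7.54 and 8.02 after 5FU, a difference of -0.64 (-1.14 to -0.14, limma adjusted p = 0.269). TM7SF2 differed by 0.66 (0.25 to 1.08, limma adjusted p = 0.179). Of the fatty acid genes ACLY was at 0.25 (-0.07 to 0.58), FASN at 0.24 (-0.07 to 0.56), ACACA at 0.10 and SCD at 0.09, none at an unadjusted p below 0.05. With 1 array left out ACACA ran from -0.13 to 0.33 and SCD from -0.07 to 0.25. In all, 10 members were lower after Nutlin-3 without overlap (25.2% of all genes) and 8 were higher (20.8%). HSD17B7 differed by -0.30 (-0.68 to 0.08), an average over a pair of probe sets at -1.16 and -1.22 and 3 at 0.20 to 0.47.

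**Figure D4:**
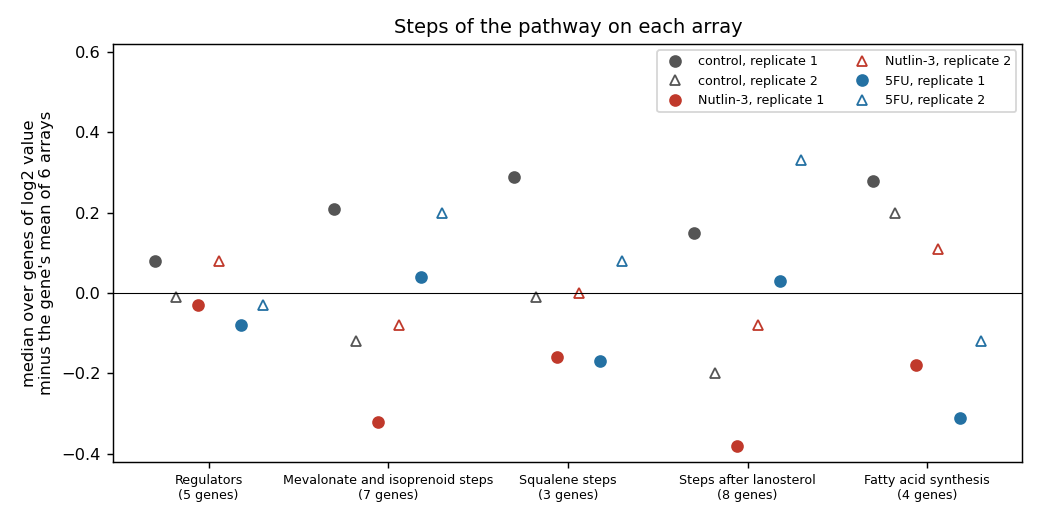
Median, over the genes of each step of the pathway, of the log2 value minus the gene's mean of the 6 arrays (vertical axis), with 1 point for each array. In the mevalonate, squalene and post-lanosterol steps control replicate 1 lies above control replicate 2 and each drug's replicate 2 above its replicate 1; in fatty acid synthesis both controls lie above the other 4 arrays.

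Replicates of a group differed for many of these genes at once. Control replicate 1 was above control replicate 2 in 21 of 28 members (52.8% of all genes), with a median gap of 0.15 against 0.02 over all genes. Nutlin-3 replicate 1 was below replicate 2 in 24 of 28 and 5FU replicate 1 below replicate 2 in 22 of 28. Over all genes, replicate 1 was the higher in 40.5% for Nutlin-3 and 39.5% for 5FU, the same direction to a smaller degree. The median differences of the members were -0.19 and -0.20 against -0.07 and -0.06 over all genes. The gaps were widest in HMGCS1 (0.89 in control) and MSMO1 (0.89), and small in SREBF1 and SREBF2 (-0.01 and 0.02). Their part in the drug differences was not tested. Without control replicate 1 the median of the 28 differences was -0.10 for Nutlin-3 and 0.02 for 5FU, and without control replicate 2 it was -0.36 and -0.14.

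Genes beside the pathway were taken from 7 further lists. In sterol efflux, transport and storage, ABCA1, which exports cholesterol to lipoproteins, rose after Nutlin-3, the 1 of 18 called, where 0.359% of all genes were called higher. It was at 5.64 and 5.66 in control, 6.49 and 6.59 after Nutlin-3, and 6.43 and 6.47 after 5FU, differences of 0.89 (1.86-fold, limma adjusted p = 0.0272) and 0.80 (0.0676). The list's median was -0.01 for Nutlin-3 and 0.05 for 5FU. The call was lost without any 1 of the 6 arrays (limma adjusted p from 0.0687 without either 5FU array to 0.148 without control replicate 1, at differences of 0.84 to 0.94). It was also lost with all probe sets of a gene (0.80, limma adjusted p = 0.0538), with their median (0.80, 0.0885) and with only the 2 groups compared (0.89, 0.0687).

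In fatty acid supply, elongation, desaturation and activation, MID1IP1, which promotes the assembly of acetyl-CoA carboxylase, rose after Nutlin-3, the 1 of 30 called, beside the same 0.359% of all genes. It was at 8.25 and 8.24 in control, 8.98 and 9.21 after Nutlin-3, and 8.15 and 8.24 after 5FU. The Nutlin-3 arrays stood above the other 4, by 0.85 from control (1.80-fold, limma adjusted p = 0.0447) and 0.90 from 5FU (0.0519). This call was also lost without any 1 of the 6 arrays (limma adjusted p from 0.0984 without either 5FU array to 0.2 without control replicate 1), and with all probe sets (0.89, 0.0788), their median (1.06, 0.0533), trend and robust variances (0.85, 0.056) or only the 2 groups compared (0.85, 0.0984). The median of the list was -0.12 for Nutlin-3 and 0.00 for 5FU, where ELOVL7, a fatty acid elongase, had the widest difference (0.64, limma adjusted p = 0.337).

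In SREBP processing and sterol-regulated degradation 0 of 13 measured genes were called by limma (3 at an unadjusted p below 0.05 for Nutlin-3 and 1 for 5FU, against 10.2% and 10.7% of all genes). TMEM97, a sterol-responsive membrane protein, was at 9.16 and 9.05 in control, 8.24 and 8.34 after Nutlin-3, and 8.93 and 9.25 after 5FU, with a Nutlin-3 difference of -0.81 (limma adjusted p = 0.0698). FBXW7, the ubiquitin ligase subunit that marks nuclear SREBP for degradation, was at 7.06 and 6.49 in control, 7.25 and 7.43 after Nutlin-3, and 7.89 and 8.01 after 5FU, with a 5FU difference of 1.18 (2.26-fold, limma adjusted p = 0.0896). Both genes lay apart from control without overlap in these comparisons and did not pass the threshold.

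Among the 4 late sterol enzymes measured outside the set, LBR, a nuclear envelope protein that catalyses the same reduction as TM7SF2, was at 9.79 and 9.29 in control, 8.59 and 8.87 after Nutlin-3, and 9.36 and 9.52 after 5FU. Its Nutlin-3 difference of -0.81 (limma adjusted p = 0.16) had the opposite sign to that of TM7SF2. POR, the reductase that feeds electrons to CYP51A1, had a 5FU difference of -0.19 (limma adjusted p = 0.733). In the isoprenoid and prenylation branch 0 of 14 were called by limma (3 and 0 at an unadjusted p below 0.05, against 10.2% and 10.7% of all genes). ICMT, which methylates prenylated proteins, was at -0.75 after Nutlin-3 (limma adjusted p = 0.148) and RABGGTB at 0.50 after 5FU (0.607).

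In glycerolipid synthesis 0 of 14 were called by limma (2 and 6 at an unadjusted p below 0.05, against 10.2% and 10.7% of all genes). AGPAT3, an acyltransferase, was at 7.82 and 7.85 in control, 7.63 and 7.68 after Nutlin-3, and 6.94 and 7.04 after 5FU, with a 5FU difference of -0.85 (limma adjusted p = 0.0576). LPIN3, a lipin phosphatase, was at 6.66 and 6.73 in control and 7.37 and 7.60 after Nutlin-3, a difference of 0.79 (limma adjusted p = 0.0522). Fatty acid oxidation had 0 of 21 called by limma (2 and 1 at an unadjusted p below 0.05, beside the same shares) and medians of 0.11 and 0.19. CPT2, a carnitine palmitoyltransferase, was at 0.60 after Nutlin-3 (limma adjusted p = 0.272) and EHHADH at 0.58 after 5FU (0.565).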

How the data were processed

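The deposited log2 values per probe set came from RMA, per the submitters' processing notes; no version, settings or genome build could be read from the sources used here. RMA leaves neither a detection call nor a depth, and precision is limited by the number of arrays. Names of probe sets came from the platform annotation (357604 with 1 symbol, 15322 with several, 1038473 with none), and symbols were updated through RefSeq (GRCh38.p14). Gene values, the mean of probe sets above 4.73 with at least 2 required, were fitted in limma 3.58.1 (R 4.3.3) over all 3 groups with no block (3 residual degrees of freedom), and p-values were Benjamini-Hochberg adjusted over 17841 genes. The fit was tested on simulated data. Nothing in the labels ties replicates to separate cultures, so p-values measure only how these samples spread, and that spread may be technical. Members, lists, motifs and tests were chosen with earlier results of these data known. Genes named are all members, called genes of the further lists (up to 4 each), the gene with the widest difference in each drug comparison per list, and CDKN1A and MDM2 as checks (MDM2: log2 difference 1.86 after Nutlin-3 and 1.57 after 5FU). TCP1, SOD2 and HSD17B7P2 were added after values were seen. Marker lists covered colonic epithelium, fibroblasts, blood, liver and fat. Alternatives varied the probe sets used, their summary, the variance model, array centring, the groups fitted, a replicate block and each array left out.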

Additional observations from a re-analysis of the deposited data

How the results depend on the processing

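No called value of a gene named here changed sign under any of the alternatives run, but calls favour wide differences. Some values that were not called did change sign, such as HMGCS1 after 5FU (-0.77 to 0.12). Member medians were computed under 14 alternatives. They moved by less than 0.152, the SD of the members' median between replicates. That SD is larger than the 5FU median (-0.03) and the Nutlin-3 against 5FU median (-0.13) in size. The 5FU median ran from -0.17 to 0.02. Counts of called members did change. For Nutlin-3 against control, 2 as reported, the count was 3 with upper-quartile probe sets alone, 1 with only the 2 groups compared, 0 with the median of probe sets and 0 with the replicate block. For 5FU against control, 1 as reported, it was 0 with upper-quartile probe sets alone, where HSD17B7 had no value, 0 with the median of probe sets and 0 with the replicate block. For Nutlin-3 against 5FU, 0 as reported, it was 1 with arrays centred on medians and 1 with upper-quartile probe sets alone. Leaving out 1 array gave 0 to 1, 0 to 1 and 0 to 0 in that order. Of the alternatives chosen after seeing the data, adding the shared HSD17B7 probe sets gave 1 and 0 for the drugs against control, and keeping the largest run of probe-set numbers of each gene gave 1 and 0. Leaving out control replicate 2 and Nutlin-3 replicate 1 together gave 5, 3 and 3. Replicate numbers are shared by the groups, and the labels do not state a pairing. The difference of replicate 1 and replicate 2 correlated across genes at -0.56 (control and Nutlin-3), -0.52 (control and 5FU) and 0.63 (Nutlin-3 and 5FU). The replicates of the drugs thus differed in the same direction, and those of control in the opposite one. A crossed pairing of control replicate 1 with replicate 2 of each drug, also chosen after seeing the data, gave 10, 5 and 9 called members. Calls over all 17841 genes reached 1788, 1882 and 2821 at most over the 18 alternatives, in the same order. These maxima need not come from the settings that gave the higher member counts, and shares of members and of all genes were not compared under those settings. Whether the higher member counts are particular to these genes was therefore not tested. Over all genes, the reported 217, 80 and 113 calls became 2, 1 and 0 with the replicate block, 5 to 149, 1 to 63 and 3 to 104 with 1 array left out (5, 3 and 104 without control replicate 1), 381, 177 and 297 with centred arrays, and 380, 151 and 234 with upper-quartile probe sets. With the replicate block the limma adjusted p of CDKN1A was 0.0535 for Nutlin-3 and 0.112 for 5FU, and the calls of INSIG1 (0.142), HSD17B7 (0.152 for Nutlin-3 and 0.166 for 5FU), ABCA1 (0.121) and MID1IP1 (0.148) were lost.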
